A study of Mus musculus with 8 samples.

Results

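Expression of 9 regulators of lung lineage and tumor progression, *Nkx2-1*, *Foxa1*, *Foxa2*, *Gata6*, *Cebpa*, *Sox9*, *Sox2*, *Hnf4a* and *Hmga2*, was compared between mouse lung tumors with and without *Setd2* targeting. The genes were chosen by name, with earlier results of these data known. Each was found once among the 48709 genes of the deposited table, and all 9 had enough reads to be tested among 14929 genes. The series compares 4 tumors of the *K-Ctrl* genotype with 4 of the *K-Setd2KO* genotype, all from mixed B6J/129S4vJae mice of the *K* model, whose lung tumors begin once Cre is delivered. In both groups a lentiviral vector, LentiCRISPRv2Cre, delivered Cre, Cas9 and a guide RNA to the lung. The guide targeted *GFP* in *K-Ctrl* and *Setd2*, which encodes a histone H3 lysine 36 methyltransferase, in *K-Setd2KO*. The study gives an upper bound on age at tumor initiation for its mouse models in general, and the age and time from infection to harvest of these tumors are not stated in the labels. The labels call the samples lung adenocarcinoma, whereas the study describes the *K-Setd2KO* tumors as low grade adenomas selected by histology to match the controls in stage. The design text describes frozen whole tumors and the extraction text cell lines, and this was not resolved. Nothing in the labels describes a sort of tumor cells, so RNA from stroma and leukocytes is part of each sample.

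NKX2-1 sets lung epithelial identity and, together with the pioneer factors FOXA1 and FOXA2, drives surfactant genes. In mouse lung tumors without NKX2-1, the FOXA proteins and HNF4A are known to support a stomach-like program. GATA6 and C/EBP alpha belong to the alveolar differentiation network, SOX9 marks the distal tip of the embryonic lung, SOX2 marks the conducting airway, and HMGA2 is a chromatin-bound architectural protein of embryonic tissue and advanced tumors.

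Of the 9 genes, *Foxa2* and *Cebpa* were higher in *K-Setd2KO*, by 1.94-fold and 1.86-fold, and none was lower. The call used edgeR's quasi-likelihood test with a Benjamini-Hochberg adjusted p under 0.05 over all tested genes, which called 12.7% of them. Genes that were called higher were 4.97% of those tested and genes called lower 7.74%. Both increases lost the call when libraries were scaled to 20 epithelial genes, the values of which are given beside each. Of the other genes, *Nkx2-1*, *Foxa1* and *Gata6* were abundant and not called, and *Sox9*, *Sox2*, *Hnf4a* and *Hmga2* varied between tumors of one genotype by more than the groups differed.

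Total counts ran from 5806599 in *K-Setd2KO* tumor 4 to 21290402 in *K-Ctrl* tumor 3, so that 3 counts stood for between 0.138 and 0.513 CPM, the unit used here for counts scaled to a common library size with TMM factors. *Setd2* mRNA averaged 140.1 ± 8.81 CPM in the controls against 135.7 ± 15.5 CPM with the *Setd2* guide (SD, n = 4 each), with an edgeR quasi-likelihood adjusted p of 0.824. A Cas9 cut can end a reading frame without lowering the mRNA, so this level does not test the labels. Epithelial markers were present in every tumor, and 8 of 20 passed the test as higher with *Setd2* targeted (median log2 fold change 0.54). They did not rise uniformly, with 17 above 0 and log2 fold changes from -0.56 to 1.01. Their summed CPM ran from 2668.9 to 4045.2 in *K-Ctrl* and from 3708.8 to 4627.7 in *K-Setd2KO*. Markers common to leukocytes moved the other way, with 7 of 8 called lower, a median of -1.65 and sums of 1084.5 to 1933.8 against 570.0 to 794.3. Neutrophil markers had a median of 0.51 with 1 of 7 called lower. T cell and B cell markers had medians of -1.69 and -2.14, with 0 of 8 and 1 of 7 called lower. Of the alveolar type 2 markers, 1 of 8 was called in each direction, and 2 of 8 alveolar type 1 markers were called lower. None of 6 club cell markers was called, but their log2 fold changes ran from -2.74 to 0.66. Their summed CPM ran from 853.1 to 3095.0 in *K-Ctrl* and from 583.6 to 1223.2 in *K-Setd2KO*. In bulk tumors, fewer cells of a type and less RNA per cell cannot be told apart.

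**Figure D1:**
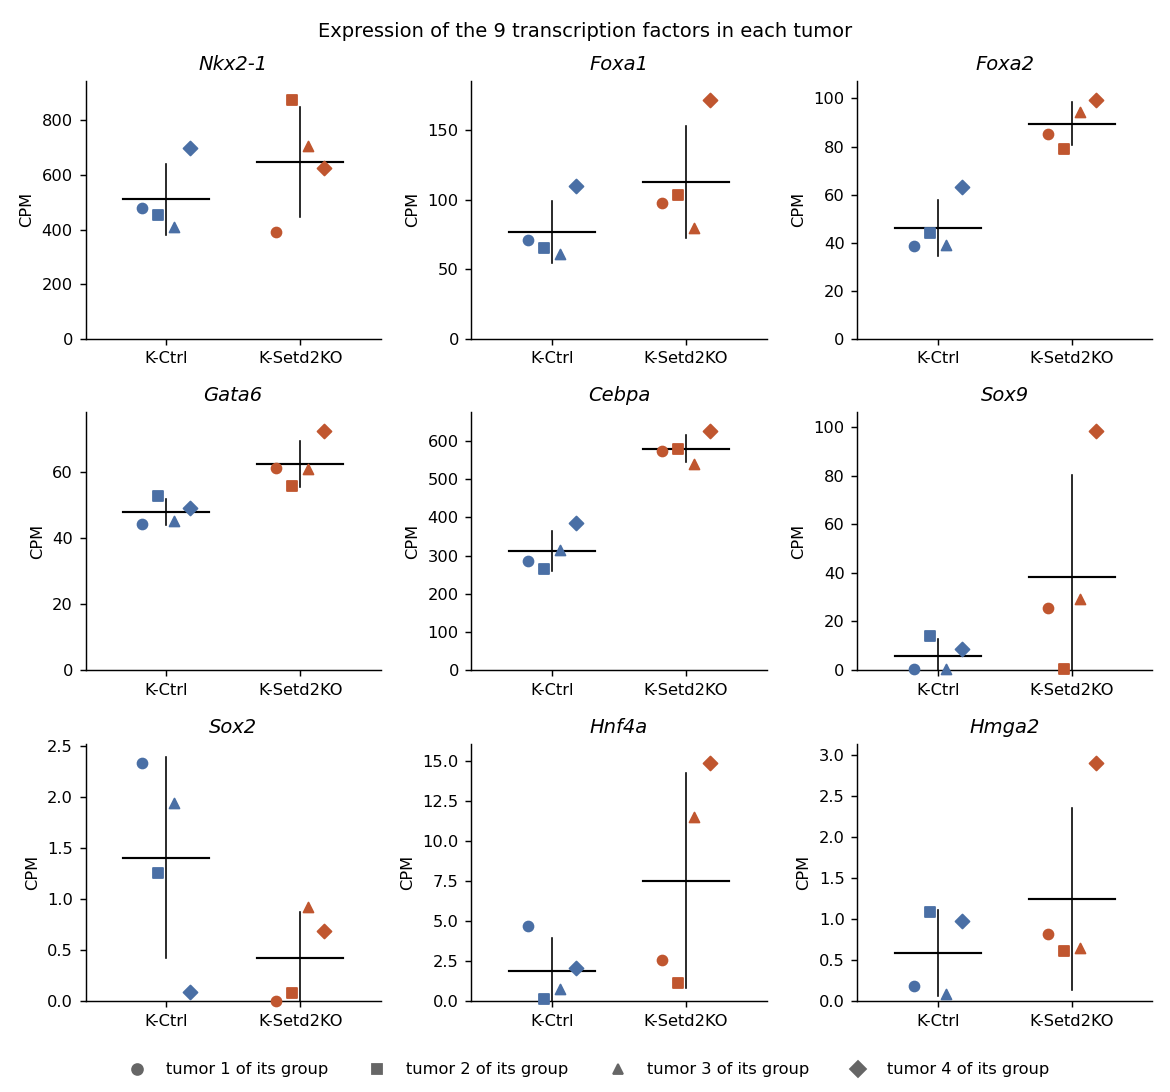
Expression of each gene in CPM on a linear axis from 0, with 1 symbol per tumor, a horizontal bar at the group mean and a vertical bar of 1 SD on either side, cut at 0. The 4 *K-Setd2KO* tumors lie above all 4 *K-Ctrl* tumors for *Foxa2*, *Gata6* and *Cebpa*, and the groups overlap for the other 6 genes.

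Sequences upstream of 3 genes are shown because *Foxa2* and *Cebpa* are the genes that passed the test and *Foxa1* is the close relative of *Foxa2* that did not. They come from the RefSeq promoter table on GRCm38.p6, which matched 7 of the 9 genes (not *Gata6* or *Sox9*), and each holds the 250 bases before the annotated start, read 5′ to 3′ on the gene's strand. Capitals mark matches to any of 7 short motifs: TGTTTAC or TGTTTGC for forkhead factors, TTGCG for C/EBP, CAAGTG for NKX2-1, AGATAA for GATA factors and AACAAT for SOX factors on either strand, and TATAAA, a core promoter element, on the gene's strand.
Foxa2, chr2:148046970-148047219, minus strand: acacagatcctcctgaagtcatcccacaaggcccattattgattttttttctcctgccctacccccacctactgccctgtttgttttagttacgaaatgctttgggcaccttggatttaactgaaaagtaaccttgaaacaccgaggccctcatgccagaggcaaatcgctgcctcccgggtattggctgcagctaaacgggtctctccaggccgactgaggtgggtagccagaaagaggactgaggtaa
Foxa1, chr12:57546112-57546361, minus strand: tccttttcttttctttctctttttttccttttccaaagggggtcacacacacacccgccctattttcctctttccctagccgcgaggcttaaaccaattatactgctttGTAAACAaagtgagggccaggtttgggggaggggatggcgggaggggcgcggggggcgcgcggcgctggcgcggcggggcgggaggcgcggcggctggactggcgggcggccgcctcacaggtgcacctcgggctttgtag
Cebpa, chr7:35119043-35119292, plus strand: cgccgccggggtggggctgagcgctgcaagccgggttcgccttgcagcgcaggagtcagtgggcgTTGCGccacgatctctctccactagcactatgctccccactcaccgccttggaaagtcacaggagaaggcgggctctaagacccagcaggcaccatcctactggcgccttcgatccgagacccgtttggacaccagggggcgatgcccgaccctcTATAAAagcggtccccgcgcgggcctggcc

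The *Foxa2* window held none of the 7 motifs, and the table lists 3 starts for this gene, of which the most upstream is shown. *Foxa1* held 1 forkhead match on the opposite strand, from 141 to 135 bases before the start, and 3.17% of all 32851 windows of this length held TGTTTAC in either orientation. *Cebpa* held the C/EBP motif TTGCG from 185 to 181 bases before its start, found in 14.5% of windows, and TATAAA from 30 to 25 bases before it, found in 7.59%. The GC content was 50.8% for *Foxa2*, 62.0% for *Foxa1* and 66.4% for *Cebpa*, against a median of 52.4% over all windows. The motifs without a match in these 3 windows were held by 4.3% (TGTTTGC), 11.6% (CAAGTG), 9.99% (AGATAA) and 9.42% (AACAAT) of all windows. These are matches of letters only, and binding was not measured.

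Per kilobase of exon, *Nkx2-1* stood first in both groups, at 179 ± 45.6 CPM per kb (SD, n = 4) in *K-Ctrl* and 228 ± 70.8 in *K-Setd2KO*. *Cebpa* was second at 119 ± 19.8 and 220.0 ± 13.4, and its range overlapped that of *Nkx2-1* within each group. After a gap came *Foxa1*, *Foxa2* and *Gata6*, at 24.1, 19.5 and 14.9 CPM per kb in *K-Ctrl*. In *K-Ctrl*, each of these overlapped the next in range, whereas in *K-Setd2KO* *Foxa2* (37.8) and *Foxa1* (35.4) overlapped each other but *Foxa1* and *Gata6* (19.6) did not. *Sox9* followed at 1.43 in *K-Ctrl*, below the range of *Gata6*, and at 9.28 in *K-Setd2KO*, overlapping it. Next were *Sox2* (0.684 and 0.205), *Hnf4a* (0.395 and 1.56) and *Hmga2* (0.0868 and 0.184), with overlap between each and the next in both groups. The most abundant were therefore the alveolar and lung identity factors, and the airway, gut and embryonic factors were the least abundant.

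*Nkx2-1* (ENSMUSG00000001496.15) lies on chromosome 12 from 56531958 to 56536908 on the minus strand of GRCm38 in 3 exon blocks. Its level was 477.4, 454.7, 408.0 and 699.5 CPM in *K-Ctrl* tumors 1 to 4 and 390.1, 873.7, 707.1 and 623.9 CPM in *K-Setd2KO* tumors 1 to 4. The lowest and the highest of the 8 tumors were both *K-Setd2KO*, and the groups overlapped. The log2 fold change of 0.35 (SE 0.259) was not called, with an edgeR quasi-likelihood adjusted p of 0.405 and an exact permutation p of 0.343. Divided by the epithelial level of the same tumor, the geometric mean CPM of the 20 epithelial genes, *Nkx2-1* was 5.36 ± 0.372 in the controls against 4.92 ± 1.48 in the *K-Setd2KO* tumors (SD, n = 4, exact permutation p = 0.686). In the fit scaled to those genes its log2 fold change changed sign, to -0.12 (adjusted p = 0.682). The controls were narrowly spread on the ratio to epithelium, and *K-Setd2KO* tumor 1 was at 2.96 while tumor 2 was at 6.25.

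*Foxa1* (ENSMUSG00000035451.6, chromosome 12, 57540631 to 57546121, minus strand, 2 exon blocks) was at 70.9, 65.4, 61.2 and 109.8 CPM in *K-Ctrl* and at 97.3, 103.1, 79.8 and 171.5 CPM in *K-Setd2KO*. Tumor 4 was the highest of its group in both, and *K-Ctrl* tumor 4 exceeded 3 of the 4 *K-Setd2KO* tumors. The mean was 76.8 ± 22.3 against 112.9 ± 40.3 CPM and the log2 fold change 0.55 (SE 0.267), not called by the edgeR quasi-likelihood test (adjusted p = 0.201). Without *K-Setd2KO* tumor 4 the log2 fold change was 0.28. Relative to the epithelial level the values were 0.804 ± 0.0718 and 0.85 ± 0.279 (SD, n = 4, exact permutation p = 0.943).

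*Foxa2* (ENSMUSG00000037025.11, chromosome 2, 148042877 to 148046969, minus strand, 4 exon blocks) was at 38.4, 44.0, 39.1 and 63.0 CPM in *K-Ctrl* and at 85.3, 79.1, 94.4 and 99.3 CPM in *K-Setd2KO*. Every *K-Setd2KO* tumor was above every *K-Ctrl* tumor, and *K-Ctrl* tumor 4 was the nearest to the other group. The group means were 46.1 ± 11.5 and 89.5 ± 9.05 CPM (SD, n = 4), a log2 fold change of 0.96 (SE 0.175) with an edgeR quasi-likelihood adjusted p of 0.0124. The exact permutation p was 0.0286, the smallest that 4 against 4 tumors can give. The call held in 17 of 18 alternatives and was lost in the fit scaled to epithelial genes, where the log2 fold change was 0.49 (adjusted p = 0.0518). Divided by the epithelial level, *Foxa2* was 0.485 ± 0.0368 in the controls against 0.682 ± 0.0951 in the *K-Setd2KO* tumors, again without overlap (SD, n = 4, exact permutation p = 0.0286).

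The ratio of *Foxa2* to *Foxa1*, a measure chosen after the values were seen, was 0.729, 0.904, 0.858 and 0.772 per kilobase in *K-Ctrl* and 1.18, 1.03, 1.59 and 0.779 in *K-Setd2KO*. *Foxa1* exceeded *Foxa2* in all 4 *K-Ctrl* tumors and in *K-Setd2KO* tumor 4, and *Foxa2* exceeded *Foxa1* in the other 3. The means of 0.816 ± 0.0799 and 1.15 ± 0.34 (SD, n = 4) gave an exact permutation p of 0.0857, so a difference in the balance of the 2 factors was not established.

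**Figure D2:**
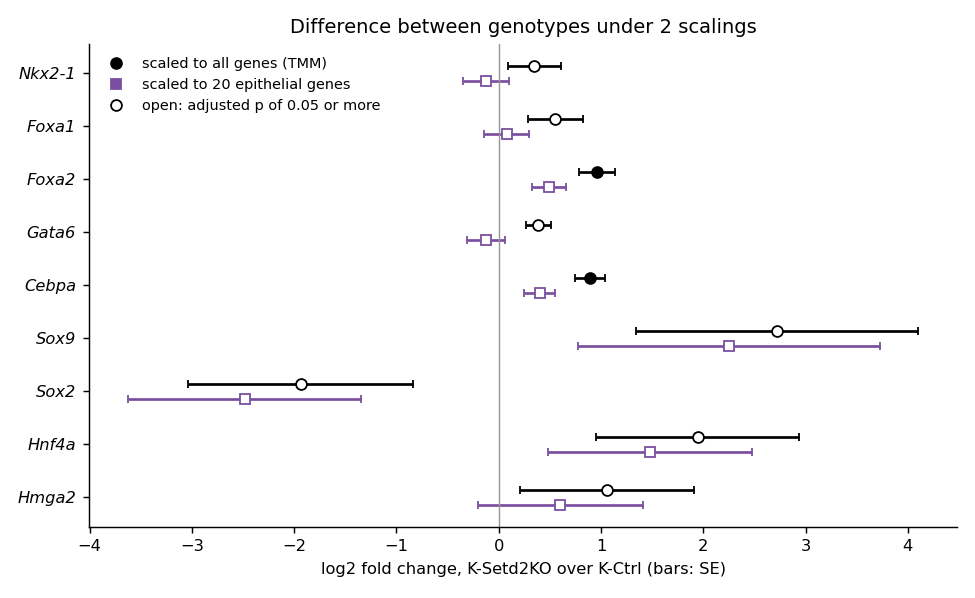
Log2 fold changes of the 9 genes (K-Setd2KO over K-Ctrl, bars of 1 SE) from the edgeR fit with TMM scaling (circles) and with scaling to 20 epithelial genes (squares), filled where the adjusted p is under 0.05. Only *Foxa2* and *Cebpa* are filled, under TMM scaling alone, and *Nkx2-1* and *Gata6* cross 0 under epithelial scaling.

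*Gata6* (ENSMUSG00000005836.8, chromosome 18, 11052510 to 11085635, plus strand, 7 exon blocks), a factor of endoderm and distal lung epithelium, was at 44.1, 52.6, 45.1 and 49.0 CPM in *K-Ctrl* and at 61.2, 55.6, 60.8 and 72.2 CPM in *K-Setd2KO*. The groups did not overlap, which was also the case for 20.3% of all tested genes (9.06% with *K-Setd2KO* higher and 11.2% with it lower), and the gap between *K-Ctrl* tumor 2 and *K-Setd2KO* tumor 2 was small. The log2 fold change of 0.39 (SE 0.121) missed the threshold, with an edgeR quasi-likelihood adjusted p of 0.0661. It was called by DESeq2 (0.38, adjusted p = 0.0254) and after removal of a length and GC trend (0.46, adjusted p = 0.0428), and it changed sign to -0.12 in the fit scaled to epithelial genes (adjusted p = 0.619).

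*Cebpa* (ENSMUSG00000034957.10, chromosome 7, 35119293 to 35121928, plus strand, 1 exon block), the gene of C/EBP alpha, a factor needed for alveolar type 2 cell maturation, was at 286.3, 264.8, 314.0 and 384.7 CPM in *K-Ctrl* and at 575.2, 580.2, 539.1 and 625.6 CPM in *K-Setd2KO*. The *K-Setd2KO* tumors were close to each other and all above *K-Ctrl* tumor 4, the highest control. The means were 312.5 ± 52.2 and 580.0 ± 35.4 CPM (SD, n = 4), which is a log2 difference of 0.89 (SE 0.143) with an edgeR quasi-likelihood adjusted p of 0.00834. Leaving out single tumors gave 0.82 to 1.01. Scaled to epithelial genes, the log2 fold change was 0.40 and was not called (adjusted p = 0.0691). Relative to the epithelial level of each tumor, *Cebpa* was 3.33 ± 0.28 in the controls against 4.4 ± 0.194 in the *K-Setd2KO* tumors, without overlap (SD, n = 4, exact permutation p = 0.0286).

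**Figure D3:**
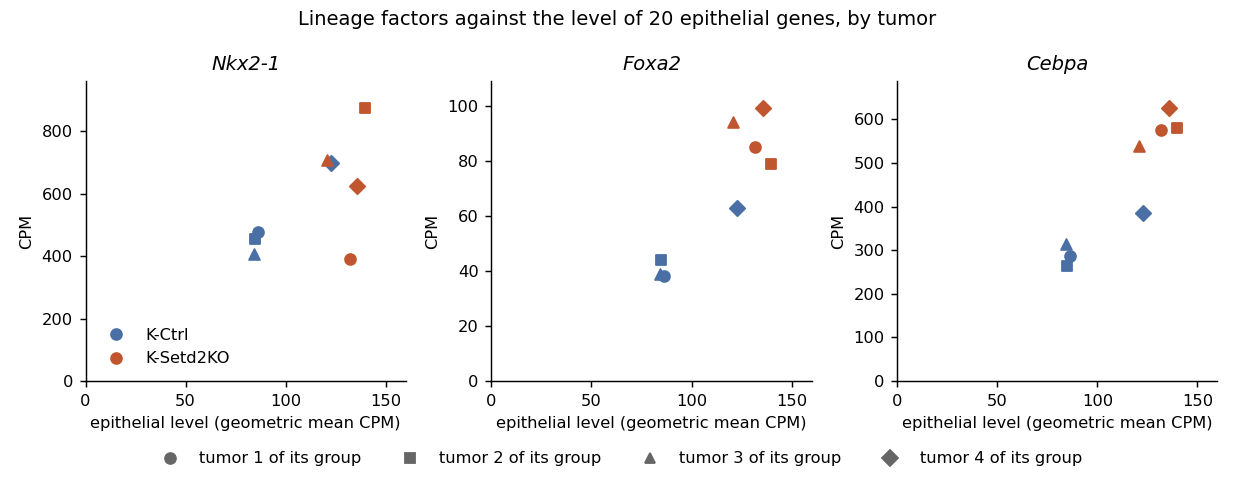
CPM of *Nkx2-1*, *Foxa2* and *Cebpa* (vertical) against the geometric mean CPM of 20 epithelial genes (horizontal) in each of 8 tumors, both on linear axes from 0. *K-Ctrl* tumor 4 (122.7) lies within the *K-Setd2KO* range of epithelial level (120.8 to 139.7) and below the *K-Setd2KO* tumors for *Foxa2* and *Cebpa*, and among them for *Nkx2-1*.

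The epithelial level itself was 86.3, 84.6, 84.3 and 122.7 in *K-Ctrl* and 131.9, 139.7, 120.8 and 135.6 in *K-Setd2KO*. *K-Ctrl* tumor 4 was the only control within the *K-Setd2KO* range, and the means of 94.5 ± 18.9 and 132.0 ± 8.13 (SD, n = 4) gave an exact permutation p of 0.0571. This tumor was the highest control for 4 of the 9 genes, *Nkx2-1*, *Foxa1*, *Foxa2* and *Cebpa*. At a like epithelial level, it had 63.0 CPM of *Foxa2* and 384.7 CPM of *Cebpa*, below the 94.4 and 539.1 CPM of *K-Setd2KO* tumor 3, and 699.5 CPM of *Nkx2-1*, near the 707.1 CPM there. The part that the epithelial share played in the higher *Foxa2* and *Cebpa* levels was not tested.

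*Sox9* (chromosome 11, 112782224 to 112787760, plus strand) split the tumors within both groups. It was at 0.554, 14, 0.369 and 8.75 CPM in *K-Ctrl* and at 25.6, 0.382, 29.3 and 98.2 CPM in *K-Setd2KO*, from counts of 9, 166, 8 and 98 and of 498, 5, 317 and 574. Of the *K-Setd2KO* tumors 3 were above every control, while tumor 2 was among the lowest of all 8, and the highest *K-Setd2KO* tumor was 257 times the lowest. The means of 5.91 ± 6.64 and 38.4 ± 41.9 CPM (SD, n = 4) did not differ beyond this spread, with a log2 fold change of 2.72 (SE 1.38), an edgeR quasi-likelihood adjusted p of 0.223 and an exact permutation p of 0.114. Leaving out single tumors gave 1.66 (without *K-Setd2KO* tumor 4) to 3.64 (without *K-Ctrl* tumor 2), none of them called. *Sox9* is also a cartilage factor, and the cartilage markers summed to at most 1.68 CPM in any tumor, with none of the 7 expressed enough to be tested. *Acan* and *Col2a1*, its defining cartilage genes, were at most 0.625 and 0.171 CPM.

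*Hnf4a* (chromosome 2, 163506808 to 163572910, plus strand), a liver and gut factor, was at 4.68, 0.168, 0.739 and 2.05 CPM in *K-Ctrl* and at 2.57, 1.15, 11.5 and 14.9 CPM in *K-Setd2KO*. Its highest levels were in *K-Setd2KO* tumors 3 and 4, and tumors 1 and 2 fell within the control range. The log2 fold change of 1.94 (SE 0.995) was not called (edgeR quasi-likelihood adjusted p = 0.227, exact permutation p = 0.2). It was 1.39 without *K-Setd2KO* tumor 4 and 2.92 without *K-Ctrl* tumor 1, neither of them called. The tumors with most *Hnf4a*, *K-Setd2KO* 3 and 4, had 707.1 and 623.9 CPM of *Nkx2-1*. That is above all 4 controls for tumor 3 and above 3 of them for tumor 4. Divided by the epithelial level, *Nkx2-1* was 5.85 in tumor 3, above the control range of 4.84 to 5.7, and 4.6 in tumor 4, below it.

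*Hmga2* (chromosome 10, 120361275 to 120476469, minus strand) was near the detection limit in every tumor, with 3, 13, 2 and 11 counts in *K-Ctrl* and 16, 8, 7 and 17 in *K-Setd2KO*. The 17 counts of *K-Setd2KO* tumor 4, the shallowest library, gave 2.91 CPM, above the 0.612 to 0.822 CPM of the other 3. The log2 fold change of 1.06 (SE 0.852) was not called (edgeR quasi-likelihood adjusted p = 0.44), and it was 0.32 without that tumor.

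*Sox2* (chromosome 3, 34650405 to 34652461, plus strand, 1 exon block) had 38, 15, 42 and 1 counts in *K-Ctrl* and 0, 1, 10 and 4 in *K-Setd2KO*. It was the only gene of the 9 with a negative fold change. At the depth of *K-Setd2KO* tumor 1, its 0 counts allow up to 0.154 CPM. The controls reached 2.34 CPM but also included a tumor at 0.0892 CPM, so that the groups overlapped and the log2 fold change of -1.94 (SE 1.1) was not called (edgeR quasi-likelihood adjusted p = 0.273). It was -3.02 without *K-Setd2KO* tumor 3 and -1.39 without *K-Setd2KO* tumor 1, neither of them called. None of these 4 low or variable genes was called with 4 tumors a group, which does not show that the genotypes were alike.

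*K-Setd2KO* tumor 4 was the highest of the 8 tumors for 7 of the 9 genes, all but *Nkx2-1* and *Sox2*. It was also the least deeply sequenced library. Without it, *Foxa2* and *Cebpa* remained called, and the other 7 genes were again not called and kept their signs, with log2 fold changes that fell to 1.66 for *Sox9*, 1.39 for *Hnf4a* and 0.32 for *Hmga2*.

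Reads of neighboring genes could in principle enter the counts where exons overlap, since the strand setting of the counting is not given in the sources used here. Within 5 kb of the 9 genes lay 15 others, of which 9 overlapped a member's span, 3 shared exon bases with it and 7 had 0 counts in all tumors. Exon bases were shared by *1010001N08Rik* with *Gata6* (58 bases), *Gm45091* with *Cebpa* (51 bases) and *1700006J14Rik* with *Hmga2* (140 bases). *Gm45091* had 64 counts over the 8 tumors, at most 0.428% of the *Cebpa* count, *1700006J14Rik* had 0, and *1010001N08Rik*, at 3.58 to 14.1% of the *Gata6* count and highest in *K-Setd2KO* tumor 3, was not called (log2 fold change 0.41, edgeR quasi-likelihood adjusted p = 0.578). *Gm26973*, an antisense RNA of *Nkx2-1* with no shared exon bases, stood between 3.4 and 5.49% of the *Nkx2-1* count in every tumor and was not called either (0.15, adjusted p = 0.757).

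The noncoding RNA *9030622O22Rik*, 2673 bases downstream of *Foxa2* on the same strand, was at 1.48, 2.35, 4.52 and 6.34 CPM in *K-Ctrl* and at 6.06, 9.56, 19.9 and 16.6 CPM in *K-Setd2KO*. Only *K-Setd2KO* tumor 1 lay below the highest control. The log2 fold change of 1.82 (SE 0.516) was just called, with an edgeR quasi-likelihood adjusted p of 0.0493, and the call held in 9 of 18 alternatives with adjusted p from 0.00368 to 0.122. Reads running past the end of *Foxa2* and reads of a separate transcript cannot be told apart in gene counts. The gene was at most 21.1% of the *Foxa2* count.

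The genes most alike in pattern were named by the root mean square difference of centered log2 CPM over the 8 tumors among 13354 protein-coding genes, as a description that reflects library and cell makeup as well. Nearest to *Foxa2* were *Epcam* (0.10), an epithelial adhesion gene, *Sox12* (0.11) and *Vars2* (0.12). *Epcam* was at 195.7, 234.7, 215.4 and 324.0 CPM in *K-Ctrl* and 444.8, 391.2, 418.0 and 559.2 CPM in *K-Setd2KO*, with a log2 fold change of 0.90 (edgeR quasi-likelihood adjusted p = 0.0177) beside 0.96 for *Foxa2*. Nearest to *Cebpa* were *Tle2* (0.09), a Groucho-family corepressor, *Aamp* (0.10) and *Unkl* (0.12).

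The low genes had less close partners. Nearest to *Sox2* were *Spef2* (0.35) and *Spag6l* (0.42), both genes of motile cilia, and *Bfsp1* (0.48). *Spef2* ran at 5.29, 1.93, 3.14 and 0.268 CPM in *K-Ctrl* and 0.154, 0.229, 0.923 and 0.856 CPM in *K-Setd2KO*, and it ranked the 8 tumors in the same order as *Sox2*. Of the 7 tested ciliated cell markers, 6 had a negative log2 fold change and the median was -1.20. *Dnah9*, a ciliary dynein gene, was at 2.41 to 6.4 CPM in *K-Ctrl*, through which it passed the low-count filter, and at 0.153 to 0.513 CPM, near the level of 3 counts, in *K-Setd2KO*. *Dnah5*, another, was at 10.2, 3.7, 6.65 and 0.803 CPM in *K-Ctrl* and 0.154, 0.0, 0.369 and 2.05 CPM in *K-Setd2KO*, so that it was also highest in *K-Ctrl* tumors 1, 3 and 2, and was not called (adjusted p = 0.0811 by edgeR). The summed level of the list, 145.9 to 182.7 CPM against 119.9 to 226.8 CPM, came mostly from *Tubb4b*, which many cells express. The part of ciliated cells in the *Sox2* level was not tested. Nearest to *Hmga2* were *Serinc2* (0.44), *Celf5* (0.48) and *Cldn4* (0.54), and to *Hnf4a* *Cers3* (0.86), *2810459M11Rik* (0.97) and *Stk32a* (1.01). The closest to *Sox9* was *Cyp1b1* at 1.29, followed by *Cd177* (1.30) and *Gpc6* (1.45), so no gene followed its range of levels closely. *Nkx2-1*, *Foxa1* and *Gata6* varied too little (SD under 0.5 on the log2 scale) for this comparison.

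The genes around the 9 factors were taken as 6 lists of 110 genes, 74 of them tested, with 11 called higher and 9 called lower. These calls were 27.0% of the tested list genes, against 12.7% of all tested genes. The lists were chosen with earlier results of these data known, so this excess is no independent support. The median log2 fold change of all tested genes was 0.03. This count of 20 depended on single tumors, and was 13, 8 and 11 without *K-Ctrl* tumor 1, *K-Ctrl* tumor 3 and *K-Setd2KO* tumor 3. Scaled to epithelial genes, 5 were called higher and 17 lower. Under that scaling 138 of all 14929 tested genes were called higher and 3850 lower, 26.7% in all, and their median log2 fold change was -0.48. The 17 lower calls of 74 lie near that background, and the 5 higher calls are a larger share than among all tested genes.

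Of the 17 tested alveolar and airway genes with known NKX2-1 sites, 3 were called higher, 1 lower and 13 in neither direction. Their log2 fold changes had a median of 0.23 and ran from -2.74, which was not called, to 1.09. *Sftpb*, a surfactant protein, rose from 5590.1 ± 1436.2 to 11859.9 ± 467.2 CPM (SD, n = 4, log2 fold change 1.09, edgeR quasi-likelihood adjusted p = 0.0122). *Lpcat1*, an enzyme of surfactant lipid synthesis, and *Ctsh*, a protease that processes surfactant protein, were called higher by 1.05 and 0.92, in 12 and 17 of 18 alternatives and in 4 and 8 of the 8 that left out 1 tumor. *Napsa*, another such protease, fell from 341.3 ± 63.2 to 112.5 ± 63.0 CPM (-1.60, adjusted p = 0.0338 by edgeR), a call that held in 10 of 18 alternatives. *Sftpc*, the surfactant gene that marks alveolar type 2 cells, was at 25163.6 ± 5045.6 and 25119.2 ± 3713.9 CPM. The count of 4 was 2 without *K-Ctrl* tumor 1, 2 or 3. Scaled to epithelial genes, 1 gene of the list was called higher and 2 lower, with a median of -0.27, which lies above the -0.48 of all tested genes.

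Stomach and gut genes that belong to the HNF4A and FOXA program were mostly too low to test, with 8 of 20 tested. Of these, 4 were called higher and none lower, with a median of 1.17. They included the tight junction gene *Cldn2* (log2 fold change 2.80), the gut lectin *Lgals4* (1.27) and the stomach mucin *Muc5ac* (3.32). *Cldn2* was at 7.14 to 27.1 CPM in *K-Ctrl* and 65.6 to 289.2 CPM in *K-Setd2KO* (edgeR quasi-likelihood adjusted p = 0.0167), and it was called in 16 of 18 alternatives. *Muc5ac* was at 0.0616 to 0.982 CPM against 1.68 to 8.58 CPM. It passed the low-count filter through the *K-Setd2KO* tumors, where it was high, so its call gives the count of 4 no support. *Gkn2*, a stomach gene, was at 0.123 to 6.14 CPM in *K-Ctrl* and 0.229 to 37.0 CPM in *K-Setd2KO* and was not called (adjusted p = 0.27). The count of 4 fell to 1 without *K-Ctrl* tumor 3 and to 2 without *K-Setd2KO* tumor 3. *Lgals4* was called in 14 of 18 alternatives and in 6 of the 8 that left out 1 tumor. Scaled to epithelial genes, *Lgals4* lost the call (0.78, adjusted p = 0.086 by edgeR). Under that scaling the list had 3 genes called higher, *Muc5ac* among them, and 0 lower. Its median was 0.69, beside -0.48 for all tested genes.

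**Figure D4:**
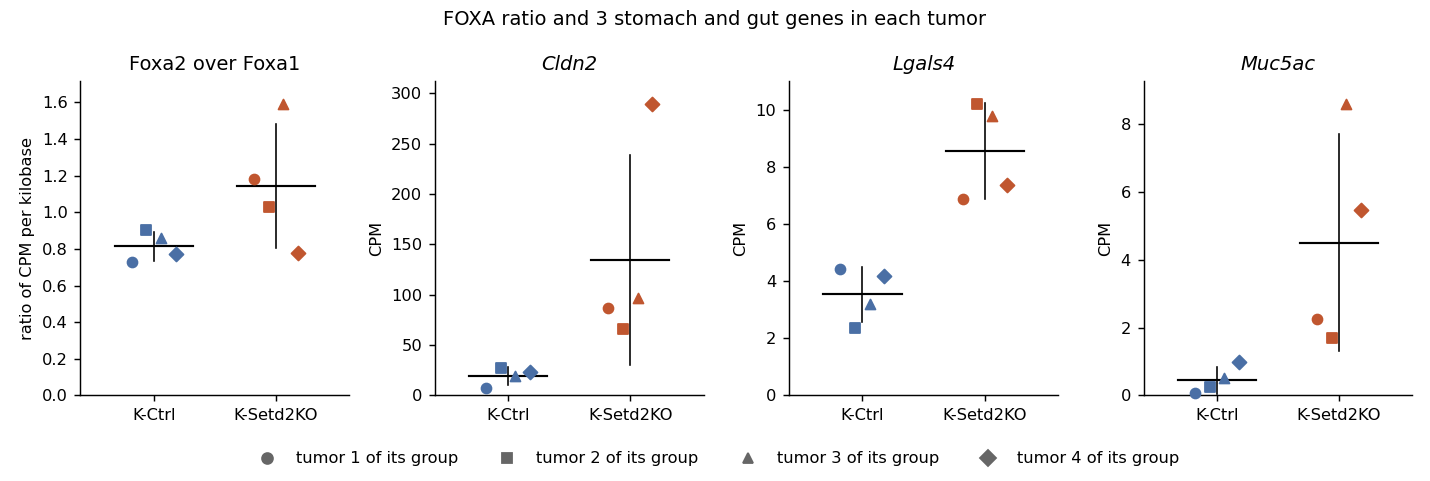
Ratio of *Foxa2* to *Foxa1* in CPM per kilobase and CPM of *Cldn2*, *Lgals4* and *Muc5ac*, with 1 symbol per tumor, the group mean and 1 SD on either side, on linear axes from 0. The groups overlap for the ratio and do not overlap for the 3 genes, and *K-Setd2KO* tumor 4 has the highest *Cldn2* at 289.2 CPM.

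Other transcription factors of lung epithelium had a median log2 fold change of 0.44, with 4 of 23 called higher and 1 lower. The 4 were *Elf3* (1.35), *Grhl1* (1.06), *Ehf* (0.78) and *Klf5* (0.65), all regulators of epithelial barrier or differentiation genes. *Elf3* rose from 22.5 ± 5.05 to 57.3 ± 3.8 CPM (SD, n = 4, edgeR quasi-likelihood adjusted p = 0.0056) and was called in all 18 alternatives, including the scaling to epithelial genes, where its log2 fold change was 0.86 (adjusted p = 0.00825). *Ehf* and *Klf5* were called in 10 and 9 of 18. Under that scaling *Grhl1* (adjusted p = 0.105), *Ehf* (0.297) and *Klf5* (0.479) lost the call, and the list had 1 gene called higher, 5 lower and a median of -0.05, beside -0.48 for all tested genes. *Tead1*, a partner of YAP that stromal cells also express, was called lower (-0.87, adjusted p = 0.0252 by edgeR), in 11 of 18 alternatives and in 4 of the 8 that left out 1 tumor. The count of 5 ran from 2 without *K-Ctrl* tumor 3 or *K-Setd2KO* tumor 1 to 8 without *K-Ctrl* tumor 4.

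Of the factors linked to tumor progression and loss of epithelial traits, 5 of 9 tested were called lower and none higher, with a median of -1.11. These were *Zeb2* (log2 fold change -1.82), *Snai2* (-2.19), *Runx2* (-1.37), *Zeb1* (-1.80) and *Prrx1* (-1.11). *Zeb2* went from 126.5 ± 29.4 to 35.7 ± 9.01 CPM (SD, n = 4, edgeR quasi-likelihood adjusted p = 0.0056), a call that held in all 18 alternatives. *Prrx1* was called in 9 of 18 alternatives and in 1 of the 8 that left out 1 tumor. With 1 tumor left out the count of 5 became 2 to 4, and it was 2 without *K-Ctrl* tumor 3 or *K-Setd2KO* tumor 3. All 5 are also expressed by leukocytes, endothelium or fibroblasts, whose markers were lower in the same tumors. *Ptprc*, the common leukocyte antigen, fell by 2.08 on the log2 scale (adjusted p = 0.0056 by edgeR), macrophage markers had a median of -1.72 with 7 of 10 called lower and sums of 2055.2 to 6277.5 against 389.7 to 2524.5 CPM, and endothelial markers had a median of -1.42 with 3 of 10 called lower and sums of 786.5 to 3050.1 against 462.1 to 775.6 CPM. Fibroblast markers had a median of -1.17, with 3 of 8 called lower and sums of 549.7 to 1154.9 against 142.8 to 599.0 CPM. None of the defining markers *Ptprc*, *Cd53*, *Cd68*, *Csf1r*, *Pecam1*, *Cdh5*, *Col1a1* and *Col1a2* was at 0 in any tumor. The part of these cells in the lower progression factors was not tested.

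Among 10 tested embryonic genes of the HMGA2 and LIN28 circuit, *Igf2bp2*, an mRNA-binding protein whose gene HMGA2 activates, fell from 17.8 ± 4.51 to 6.06 ± 2.06 CPM (SD, n = 4, log2 fold change -1.54, edgeR quasi-likelihood adjusted p = 0.0148), and the other 9 were not called, with a median of 0.13 for the list. *Hmga1*, the close relative of *Hmga2*, was at 17.0 ± 2.86 and 20.7 ± 3.35 CPM. Of the nearest relatives of the 9 factors, 7 of 18 were tested and only *Gata2*, a factor of endothelial and blood cells, was called, lower by a log2 fold change of -2.28 (adjusted p = 0.0483 by edgeR). That call held in 9 of 18 alternatives and in 2 of the 8 that left out 1 tumor. The count of 1 ran from 0 (without *K-Ctrl* tumor 1 or 3 or *K-Setd2KO* tumor 3 or 4) to 2 (without *K-Ctrl* tumor 4), and was 4, all lower, when scaled to epithelial genes. *Foxa3* was at 1.06 ± 0.25 and 1.83 ± 0.313 CPM (adjusted p = 0.163), and *Cebpb* at 69.9 ± 30.9 and 28.9 ± 12.2 CPM (adjusted p = 0.0628), so neither relative passed the test beside *Foxa2* and *Cebpa*.

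**Figure D5:**
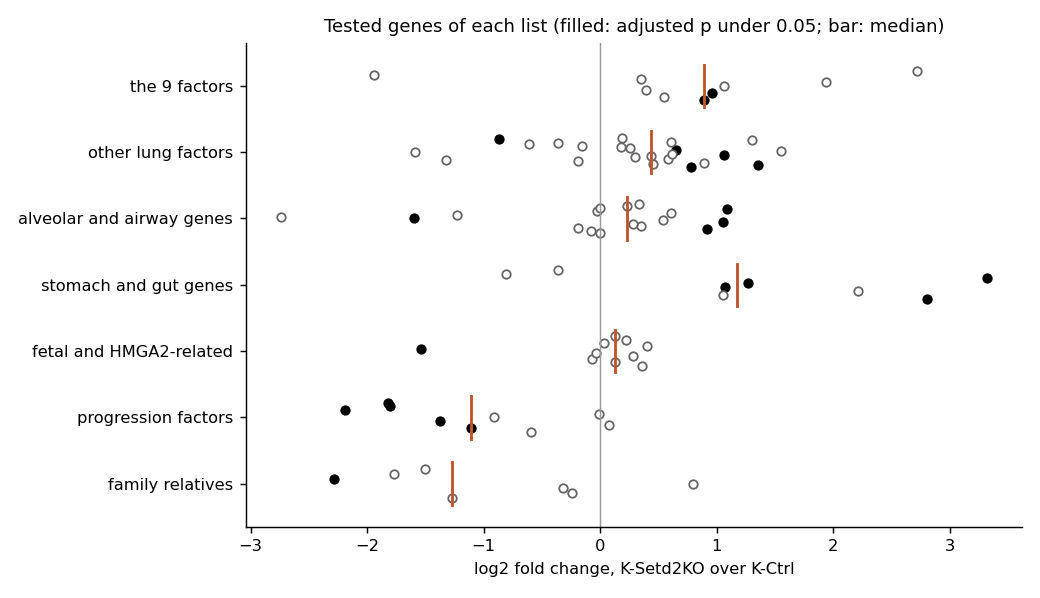
Log2 fold change (K-Setd2KO over K-Ctrl, horizontal) of every tested gene of the 9 factors and of the 6 lists around them, filled where the edgeR adjusted p is under 0.05, with an orange bar at each list's median. The medians run from -1.27 for family relatives to 1.17 for stomach and gut genes.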

How the data were processed

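Raw counts per gene were deposited by the authors for 8 tumors in 1 table, with no normalization. The submitters' processing notes name STAR 2.5.2b, featureCounts 1.5.0-p1 and GRCm38.p4, and the strand setting is not given in the sources used here. The libraries came from a stranded mRNA kit. Gene symbols came from GENCODE M21, in which 99.26% of 48709 identifiers matched. Groups followed the genotype label. Nothing says that the tumors came from separate mice, so p-values measure the spread between these samples only. The counts were analyzed with edgeR 4.0.16 in R 4.3.3 (filterByExpr, TMM, robust quasi-likelihood fit, genotype alone), with Benjamini-Hochberg adjustment over 14929 genes, and the pipeline was tested on simulated data. DESeq2 1.42.0, limma voom 3.58.1, other scalings and filters, a replicate block, a sex term, removal of a length and GC trend, and single tumors left out were alternatives. Exact permutation tests were two-sided over 70 assignments. A limit of 3 counts covers counting error only.

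The 9 genes and all lists were chosen with earlier results of these data known. Named genes were the 9, every gene within 5 kb of them, up to 4 called genes of each list by p (the 2 most expressed in addition where fewer than 2 were called), the 3 most alike per gene, the first 2 genes of each marker list, and *Setd2*. *Prrx1*, *Klf5*, *Sftpc*, *Gkn2*, *Hmga1*, *Foxa3*, *Cebpb*, *Dnah5* and *Dnah9* were added after their values were seen. The result of 1 further gene that this rule names is not reported here.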

Additional observations from a re-analysis of the deposited data

Results flagged for a closer look

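Among 106 groups of 4 tumors, 7 held a tumor whose gap to the nearest other exceeded Dixon's 95% critical value for 4 samples, where chance gives about 1 in 20, or 5.3. *Hmga2* was at 2.91 CPM in *K-Setd2KO* tumor 4, against 0.612 to 0.822 CPM in the other 3. The same tumor had 289.2 CPM of *Cldn2*, against 65.6 to 96.5 CPM. *K-Ctrl* tumor 4 was the highest control for *Lpcat1* (1491.7 CPM, others 1117.7 to 1176.9), *Napsa* (436.1 CPM, others 307.5 to 310.9) and *Sox12* (23.4 CPM, others 13.5 to 15.1). *Cebpg*, a relative of *Cebpa*, was at 201.4 CPM in *K-Setd2KO* tumor 1 and at 133.0 to 142.6 CPM in the others. *Cyp1b1*, the gene nearest to *Sox9* in pattern, was at 12.1 CPM in *K-Setd2KO* tumor 2 and at 89.4 to 104.2 CPM in the others, and *Sox9* was also lowest there.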

How the results depend on the processing

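Of 158 alternative values for the 9 genes, 151 kept their direction and side of the threshold, including all 72 that left out 1 tumor. Scaling to epithelial genes lowered the median of all tested genes by 0.52 (log2). Under it none of the 9 was called, *Foxa2* (0.49) and *Cebpa* (0.40) keeping their direction, and *Nkx2-1* (-0.12) and *Gata6* (-0.12) changed sign, the cause of which was not tested. *Gata6* was called by DESeq2 (0.38) and after removal of the length and GC trend (0.46), which raised the median by 0.14. *Foxa1* was called with the replicate number as a block (0.54, adjusted p = 0.0476 by edgeR). Deviations from the group means over all tested genes correlated by -0.0742, -0.0299, 0.191 and -0.0232 between tumors of the same number. Between tumors of different numbers the correlations ran from -0.193 to 0.131. The labels state no pairing, and these values do not settle whether there was one. Of all tested genes, 742 were called higher and 1155 lower, against 1327 and 1867 by DESeq2, 138 and 3850 scaled to epithelial genes, 1706 and 1022 after removal of the trend, 453 and 784 with a sex term (by expression 1 *K-Ctrl* and 3 *K-Setd2KO* tumors were female) and 403 and 938 with the block. With 1 tumor left out, 763 to 2058 genes were called in all, and 8 to 22 genes of the lists around the 9 factors, against 20. Without scaling by length, 5 of 9 genes kept their rank. Counting only overlapping genes as neighbors left 9 of 15, and ranking by Pearson correlation named 4 of the same 18 genes. Depth limits *Sox2* and *Hmga2* most, at counts of 0 to 42 per tumor.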
